A study of Homo sapiens with 46 samples.

Results

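HDAC2-AS2, LINC01405, ESRG, LINC-ROR and LINC00678 are 5 long noncoding RNAs (lncRNAs) of human pluripotent stem cells (hPSCs), and their levels were followed through 4 subcellular fractions of hPSCs and of ectoderm, mesoderm and endoderm made from them. They are 5 of the 21166 Ensembl genes listed in at least 1 of the 4 cell-type tables. They were chosen by name, with HDAC2-AS2 and LINC01405 taken because both had been seen to fall in derived cells of these same libraries. Every difference between hPSCs and derived cells is therefore given as a description with no test. The tests concern other contrasts: the fractions within a cell type, the isoforms, the difference of a fraction contrast between cell types, and the derived cell types against each other. The last of these compares derived levels, which entered the choice of HDAC2-AS2 and LINC01405. Its p-values for these genes are therefore not independent of the choice.

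The cells were H1, a single human embryonic stem cell line, grown on Matrigel in mTeSR1. Endoderm was made in RPMI with WNT3A and Activin A; mesoderm in DMEM/F12 with VEGF, BMP4, bFGF and Activin A, the last removed after the first 24 h; and ectoderm in DMEM/F12 and KOSR with A83-01, PNU-74654 and dorsomorphin. Collection after 5 days is stated with the ectoderm recipe. Mild lysis over sucrose gave cytoplasm and a nuclear pellet; part of the pellet was kept as the nucleus, and the rest was separated by urea lysis into a supernatant, the nucleoplasm, and a pellet, the chromatin, with alpha-amanitin in the buffers. Of 16 groups, 15 held 3 libraries and mesoderm nucleoplasm held 1. The series' design text speaks of transcription block with actinomycin D, but no sample label gives that treatment.

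LncRNAs are transcripts without a known protein product; some stay where they are made and act on chromatin, others are exported. ESRG is known for its high level in hPSCs and its loss on differentiation, LINC-ROR for its part in reprogramming and as a decoy for microRNAs, and HDAC2-AS2 is named for its position antisense to HDAC2, a histone deacetylase gene.

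By GENCODE 29, ESRG lies at chr3:54632122-54639857 on the minus strand, inside the span of CACNA2D3, which is on the plus strand, and its listed transcript has 4 exons and 3140 bases. LINC00678 lies at chr11:27617626-27634627, minus strand (listed transcript of 3 exons and 786 bases), and LINC-ROR at chr18:57054558-57072119, minus strand (4 exons and 2604 bases). LINC01405 lies at chr12:110936585-110958208, plus strand. LINC00678, LINC-ROR and LINC01405 overlap no protein-coding gene. HDAC2-AS2 lies at chr6:113969701-114471705, plus strand, a span of 502005 bases that overlaps HDAC2 and HS3ST5, both on the minus strand. Whether the counting used strand is not given in the sources used here, so reads of HDAC2-AS2 and HDAC2, or of ESRG and CACNA2D3, cannot be told apart where their exons overlap.

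The RefSeq promoter table (GRCh38.p14) held 1 of the 5 genes, HDAC2-AS2. Its window, 250 bases before to 50 bases after the start at chr6:113969451-113969750, plus strand, is shown because the derived cell types differed in HDAC2-AS2 in every fraction tested between endoderm and the others; capitals mark its single TATAAA.
HDAC2-AS2: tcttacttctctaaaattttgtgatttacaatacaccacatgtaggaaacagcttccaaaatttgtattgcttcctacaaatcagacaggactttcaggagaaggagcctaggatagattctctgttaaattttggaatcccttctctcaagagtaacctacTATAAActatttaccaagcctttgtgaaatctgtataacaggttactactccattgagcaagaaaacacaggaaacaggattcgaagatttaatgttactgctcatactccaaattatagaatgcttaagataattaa

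The first T of that motif is 88 bases before the start. TATAAA was searched on both strands and is in 11.5% of the 35116 promoters of the table. ATTTGCAT, the octamer of POU factors, is in 1.77% of them, CATTGT, a SOX core, in 10.8%, and CCAAT in 34.6%; none of these 3 letter strings is in the window. The window's GC content was 34.0%, against a median of 58.7% over all promoters.

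The libraries held 4990408 to 21298678 counts, of which 0.277% to 9.60% fell on transcripts of no Ensembl gene, and 3 counts, taken as the floor, correspond to 0.141 to 0.601 CPM, counts scaled to a fixed library total. This floor covers counting error only, while the SDs and SEs given below include the spread between replicates. No 2 replicates held identical values. All 8 hPSC markers were in the hPSC table. All 8 endoderm markers were in the endoderm table and none in the hPSC table. For ectoderm 6 of 8 markers were in the ectoderm table (SOX1 and HES5 were not listed). The mesoderm list held 10 names, with T and TBXT as 2 names of 1 gene. Of these 5 were in the mesoderm table, without MIXL1, MESP1, KDR, GATA4 and the name T, and with TBXT under 1 CPM. The endoderm table held 8 of the 10 mesoderm markers, at a sum of 360 to 592 CPM against 166 to 364 CPM in mesoderm libraries. The hPSC table held 5 of them, at 36.7 to 472 CPM, so this list did not separate mesoderm from hPSCs. SOX2 was not listed for endoderm or mesoderm, and NANOG not for ectoderm or mesoderm.

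The fraction labels were checked with RNAs of known place before any contrast was read. In hPSCs 6 of 6 cytoplasmic controls (ACTB, GAPDH, RPLP0, EEF1A1, RPS3 and TUBA1B) were higher in cytoplasm than in nucleus. MALAT1, a nuclear lncRNA, went the other way to its known place: it was at 208 to 252 CPM in the libraries labelled cytoplasm and 74.1 to 95.7 CPM in those labelled nucleus, and at 587 to 1030 CPM in nucleoplasm. In ectoderm 0 of the 6 cytoplasmic controls were higher and 3 were lower in the libraries labelled cytoplasm than in those labelled nucleus, and MALAT1 was at 1110 to 2180 against 34.2 to 304 CPM. In endoderm 4 of 6 and in mesoderm 6 of 6 cytoplasmic controls were higher in cytoplasm. Nuclear controls were MALAT1, NEAT1, KCNQ1OT1, SNHG14 and MEG3. Of 4 tested in hPSCs, 2 were higher and 1 lower in cytoplasm than in nucleus. In ectoderm 4 of 5 were higher and 0 lower, in endoderm 1 of 4 higher and 2 lower, and in mesoderm 0 of 4 higher and 3 lower. Cytoplasm against nucleus is therefore a comparison of the libraries so labelled, and in ectoderm it goes against both sets of controls.

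All 5 genes were listed in the hPSC table, with 5 isoforms of HDAC2-AS2, 2 of LINC01405, 6 of ESRG, 5 of LINC-ROR and 5 of LINC00678. LINC-ROR was not listed in the ectoderm, endoderm or mesoderm table, and LINC00678 was not listed in the mesoderm table. Each cell type had its own transcript assembly, so a level set across cell types compares partly different gene models. The plot of CPM by library shows every value.

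**Figure D1:**
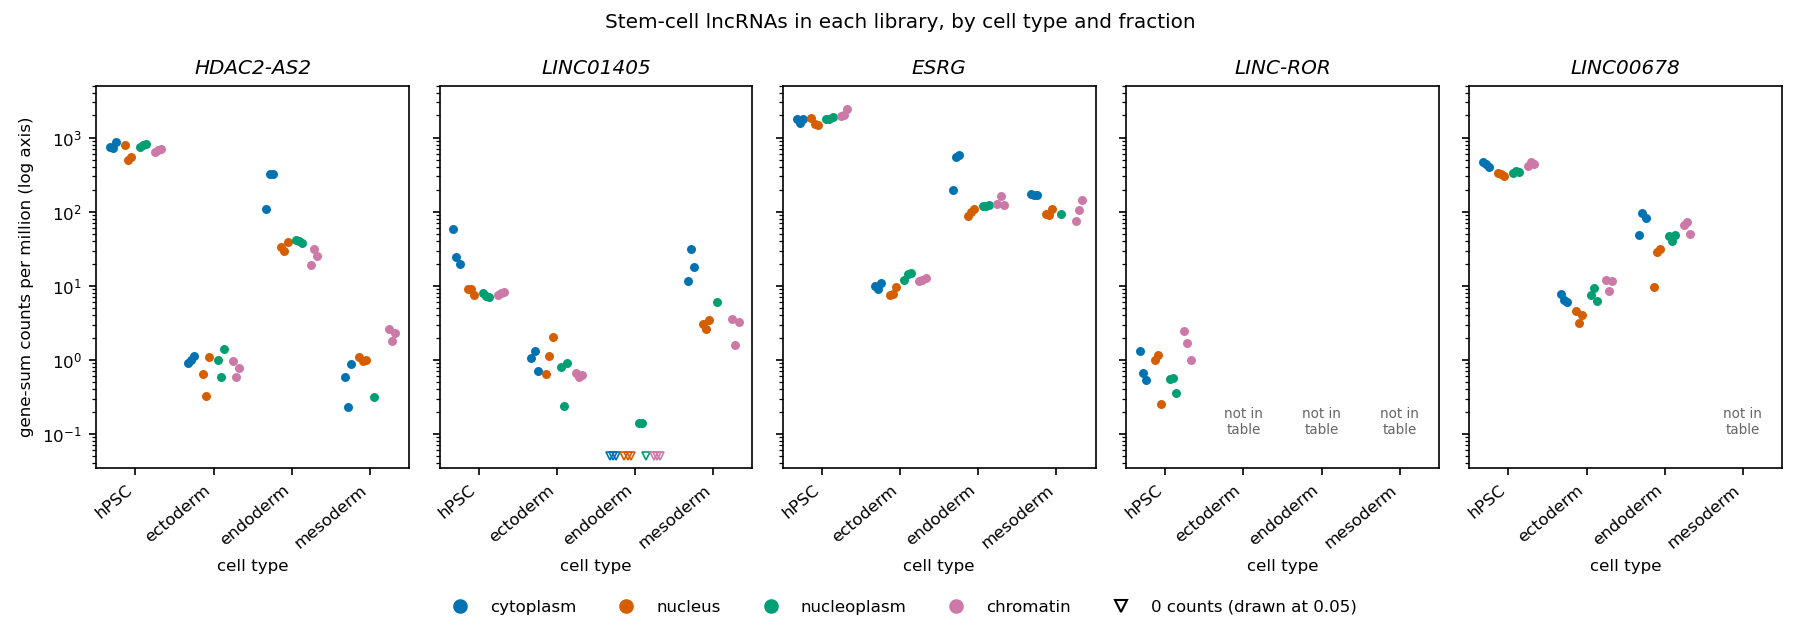
Gene-sum CPM of the library total (log axis) for each lncRNA in every library, by cell type on the x axis and fraction by colour; open triangles are libraries with 0 counts. HDAC2-AS2 and ESRG are highest in hPSCs in every fraction, HDAC2-AS2 is near 1 CPM in ectoderm and mesoderm but 19.4 to 328 CPM in endoderm, and LINC01405 is at 0 in 10 of 12 endoderm libraries.

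In hPSCs ESRG had the highest level per length of the 5. Its TPM, the authors' length-scaled measure of transcripts, was 706 ± 44.9 in cytoplasm, 651 ± 86.3 in nucleus, 974 ± 99.1 in chromatin and 680 ± 29.1 in nucleoplasm (SD, n = 3). In cytoplasm LINC00678 (242 ± 10.1 TPM), LINC01405 (236 ± 125) and HDAC2-AS2 (234 ± 38.9) followed and did not differ beyond their spread. In chromatin HDAC2-AS2 (329 ± 24.9 TPM) and LINC00678 (292 ± 20.0) had overlapping ranges, and LINC01405 was lower at 64.8 ± 5.95. LINC-ROR was last in every fraction, at 0.270 to 1.03 TPM on average. In bulk samples fewer cells with an RNA and less RNA per cell cannot be told apart.

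LINC01405 was the member that differed most between fractions of hPSCs. Its gene sum was 58.0, 24.6 and 20.0 CPM in cytoplasm, 9.03, 9.02 and 7.55 in nucleus, 7.47, 8.00 and 8.18 in chromatin and 7.97, 7.41 and 6.97 in nucleoplasm. Every cytoplasm library was above every library of the other 3 fractions, and the highest was cytoplasm replicate 1. By edgeR's quasi-likelihood test with Benjamini-Hochberg adjustment over 14150 genes, the log2 difference of cytoplasm over nucleus was 1.94 (SE 0.32), with an adjusted p of 0.0001452. Chromatin was below cytoplasm by log2 -2.27 (SE 0.33, adjusted p = 4.855e-05 in the same edgeR fit) and nucleoplasm below cytoplasm by -2.11 (SE 0.33, adjusted p = 0.0001178). Without cytoplasm replicate 1 these 3 values were 1.30, -1.63 and -1.47, and all still passed. Chromatin and nucleoplasm differed by -0.16, which did not pass.

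LINC00678 had a smaller difference of the same direction. It was at 472, 442 and 398 CPM in cytoplasm, 338, 322 and 305 in nucleus, 420, 464 and 442 in chromatin and 337, 361 and 348 in nucleoplasm. The cytoplasm and chromatin libraries lay above all nucleus and nucleoplasm libraries and overlapped with each other. In the edgeR fit cytoplasm exceeded nucleus by log2 0.38 (SE 0.11, adjusted p = 0.008), while nucleoplasm against cytoplasm was -0.24 (adjusted p = 0.08083). These 2 genes were the 2 of 5 members called between cytoplasm and nucleus, where 65.4% of all 14150 genes were called and 35% were called higher in cytoplasm.

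HDAC2-AS2 and ESRG were spread over the fractions. HDAC2-AS2 was at 750, 729 and 864 CPM in cytoplasm, 795, 496 and 558 in nucleus, 649, 692 and 711 in chromatin and 744, 794 and 823 in nucleoplasm. Nucleus replicate 1 was among the highest of the 12 libraries and the other 2 nucleus libraries were the lowest. Cytoplasm against nucleus was log2 0.28 (SE 0.14, adjusted p = 0.09771 by edgeR with Benjamini-Hochberg adjustment), and without nucleus replicate 1 it was 0.47 (adjusted p = 0.004475). HDAC2, the coding gene on the opposite strand, passed in the same contrast at 1.27 (adjusted p = 0.0005296 by edgeR).

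ESRG was at 1808, 1599 and 1793 CPM in cytoplasm, 1823, 1526 and 1504 in nucleus, 1951, 2022 and 2423 in chromatin and 1775, 1816 and 1936 in nucleoplasm. The chromatin libraries were the 3 highest of the 12. None of its 4 contrasts passed: cytoplasm against nucleus was log2 0.03 (SE 0.13, adjusted p = 0.8211 by edgeR) and chromatin against cytoplasm 0.15.

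Chromatin against nucleoplasm gave 2 calls among the 5 members, with 30.5% of all genes called. HDAC2-AS2 was lower in chromatin by log2 -0.44 (SE 0.14, adjusted p = 0.03259 by edgeR) and LINC-ROR higher by 1.57 (SE 0.55, adjusted p = 0.04689). Neither call is firm: with total counts in place of TMM factors HDAC2-AS2 was at -0.20 (adjusted p = 0.3512), without a filter on low counts LINC-ROR had an adjusted p of 0.05075, and each call was lost when any of 5 of the 6 libraries was left out. For chromatin against cytoplasm and nucleoplasm against cytoplasm LINC01405 was the 1 member called, beside 63.5% and 53.9% of all genes.

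LINC-ROR was counted only in small numbers. Cytoplasm libraries held 11, 10 and 8 counts, nucleus 14, 16 and 4, nucleoplasm 7, 8 and 5, and chromatin 39, 23 and 13. All 12 libraries were above the floor of 3 counts, and the chromatin libraries held the 2 highest counts. In CPM the means were 0.840 ± 0.422 in cytoplasm, 0.813 ± 0.493 in nucleus, 1.72 ± 0.729 in chromatin and 0.495 ± 0.120 in nucleoplasm (SD, n = 3).

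**Figure D2:**
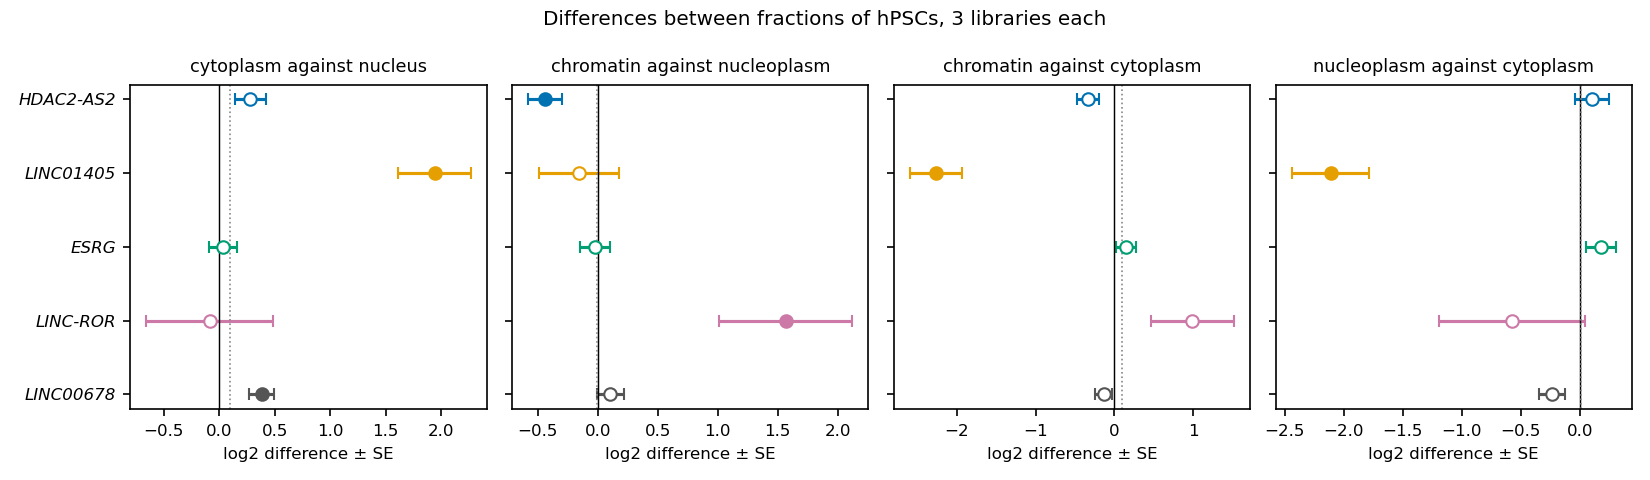
Log2 difference ± SE between fractions of hPSCs for each lncRNA (y axis), from the edgeR fit of 12 libraries, in 4 contrasts with separate x axes; filled points passed an adjusted p of 0.05, open points did not, and dotted lines are the median of all genes tested. LINC01405 stands at 1.94 in cytoplasm against nucleus, -2.27 in chromatin against cytoplasm and -2.11 in nucleoplasm against cytoplasm.

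Gene lists of the pluripotent state give the setting of these contrasts. Of 25 protein-coding pluripotency genes, 9 were higher and 3 lower in cytoplasm than in nucleus of hPSCs, with a median of log2 0.21 beside 0.10 over all genes. POU5F1, a core pluripotency factor, was higher (1.47), as was NANOG (0.60), and SOX2 was lower (-0.91). Of 28 other lncRNAs described in stem cells 18 were tested: 7 were higher in cytoplasm, among them CYTOR (2.74), LINC01356 (2.08), LNCPRESS1 (1.59), DANCR (1.28) and LINC00458 (1.12), and 6 were lower, among them LINC01108 (-1.21), FIRRE (-0.89) and MIAT (-0.84). FIRRE and MIAT are known as nuclear lncRNAs, but of the 4 nuclear controls tested in this contrast 2 were higher and 1 lower in cytoplasm.

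Isoforms of 1 gene differed between fractions where the gene sum did not. Of 18 isoforms of HDAC2-AS2, LINC01405, ESRG and LINC00678 that were tested, 8 were higher and 4 lower in cytoplasm than in nucleus of hPSCs, beside 39.7% of all 28897 isoforms called (19.6% higher and 20% lower). In chromatin against cytoplasm 5 were higher and 8 lower (38.8% of all called, 22.1% higher and 16.7% lower), and in nucleoplasm against cytoplasm 6 were higher and 7 lower (29.7%, 16% higher and 13.7% lower). Between chromatin and nucleoplasm 0 were called by edgeR with adjustment, where 9.75% of all isoforms were. Isoform counts are estimates from reads that several isoforms share, so they are less certain than gene sums, and opposite changes within a gene can come together from that division.

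ESRG is the clearest case. Its isoform ESC.3186.5, without an Ensembl identifier, held 26.4% of the gene's counts in cytoplasm and 48.1% in nucleus, with 49.2% in chromatin and 48.4% in nucleoplasm. It was lower in cytoplasm than nucleus by log2 -0.78 (adjusted p = 0.0008525 by edgeR), and ESC.3186.4 was lower by -0.59. The listed transcript ESC.3186.2 was at 390, 336 and 324 CPM in cytoplasm and 214, 135 and 157 in nucleus, with no overlap, and was higher in cytoplasm by 1.03 (SE 0.14, adjusted p = 0.0002459 by edgeR). ESC.3186.3 (1.21) and ESC.3186.6 (1.36) were higher too. In chromatin against cytoplasm the same 5 isoforms were called with the signs reversed, from -1.66 for ESC.3186.6 to 0.98 for ESC.3186.5; that of ESC.3186.3 (-0.84) was lost with total counts (-0.62, adjusted p = 0.06177 by edgeR). Judged by counts per TPM, the effective length of ESC.3186.5 was 2.00 times that of the listed transcript, of ESC.3186.4 1.27 times, of ESC.3186.3 0.831 times and of ESC.3186.6 0.307 times, so the 2 isoforms lower in cytoplasm were the 2 longest. ESC.3186.1 was at 0 counts in 3 libraries and up to 4747 in another, and was not called.

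LINC00678 had the same arrangement within the gene. Its listed transcript ESC.8833.2 was at 89.9, 60.5 and 56.2 CPM in cytoplasm and 20.5, 15.2 and 20.9 CPM in nucleus, a difference of log2 1.84 (SE 0.21, adjusted p = 0.0001001 by edgeR). ESC.8833.4 was higher by 1.30 and ESC.8833.1, which held 63.8% to 69.8% of the counts, by 0.29. ESC.8833.3 (-0.56) and ESC.8833.5 (-0.81) were lower in cytoplasm. The calls of ESC.8833.1, ESC.8833.3 and ESC.8833.5 were each lost in 3 of the 6 fits that left out 1 library, cytoplasm replicate 2 among those for all 3 isoforms. The listed transcript had the shortest effective length of the 5; ESC.8833.1 and ESC.8833.3 were 8.51 and 6.88 times as long by that measure and ESC.8833.4, which was higher in cytoplasm, 4.08 times, so length did not order these differences.

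For LINC01405 the listed transcript was the isoform that differed between fractions. ESC.10197.1 was at 53.9, 19.2 and 16.1 CPM in cytoplasm and 4.59, 2.88 and 2.79 CPM in nucleus (log2 3.09, SE 0.47, adjusted p = 0.0005178 by edgeR), and without cytoplasm replicate 1 the difference was 2.35. The other isoform, ESC.10198.1, was at -0.21 and did not pass (adjusted p = 0.6733). The listed transcript held 83.7% of the gene's counts in cytoplasm and 39.9% in nucleus. The other isoform was 32.2 times as long by counts per TPM.

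HDAC2-AS2 was assembled in hPSCs as 3 loci with 5 isoforms, none with an Ensembl transcript identifier. ESC.5914.1 was higher in cytoplasm than nucleus by log2 0.85 (adjusted p = 0.004879 by edgeR) and lower in chromatin than cytoplasm by -1.20. ESC.5915.3 was lower in chromatin than cytoplasm by -0.84 and ESC.5913.1 higher by 1.34. ESC.5915.5 held 15.5% to 32.7% of the gene's counts in cytoplasm and 39.8% to 46.0% in nucleoplasm; its call in nucleoplasm against cytoplasm (0.93, adjusted p = 0.03321 by edgeR) was lost with total counts (0.87, adjusted p = 0.05281) and when any of 5 of the 6 libraries was left out. Of the LINC-ROR isoforms, the listed ESC.13855.4 had 9, 7 and 5 counts in cytoplasm and 0 in every chromatin library, and ESC.13855.1 had 14, 14 and 9 counts in chromatin and 0 in every cytoplasm library. ESC.13855.1 was tested and not called, and ESC.13855.4 did not pass the filter on low counts.

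**Figure D3:**
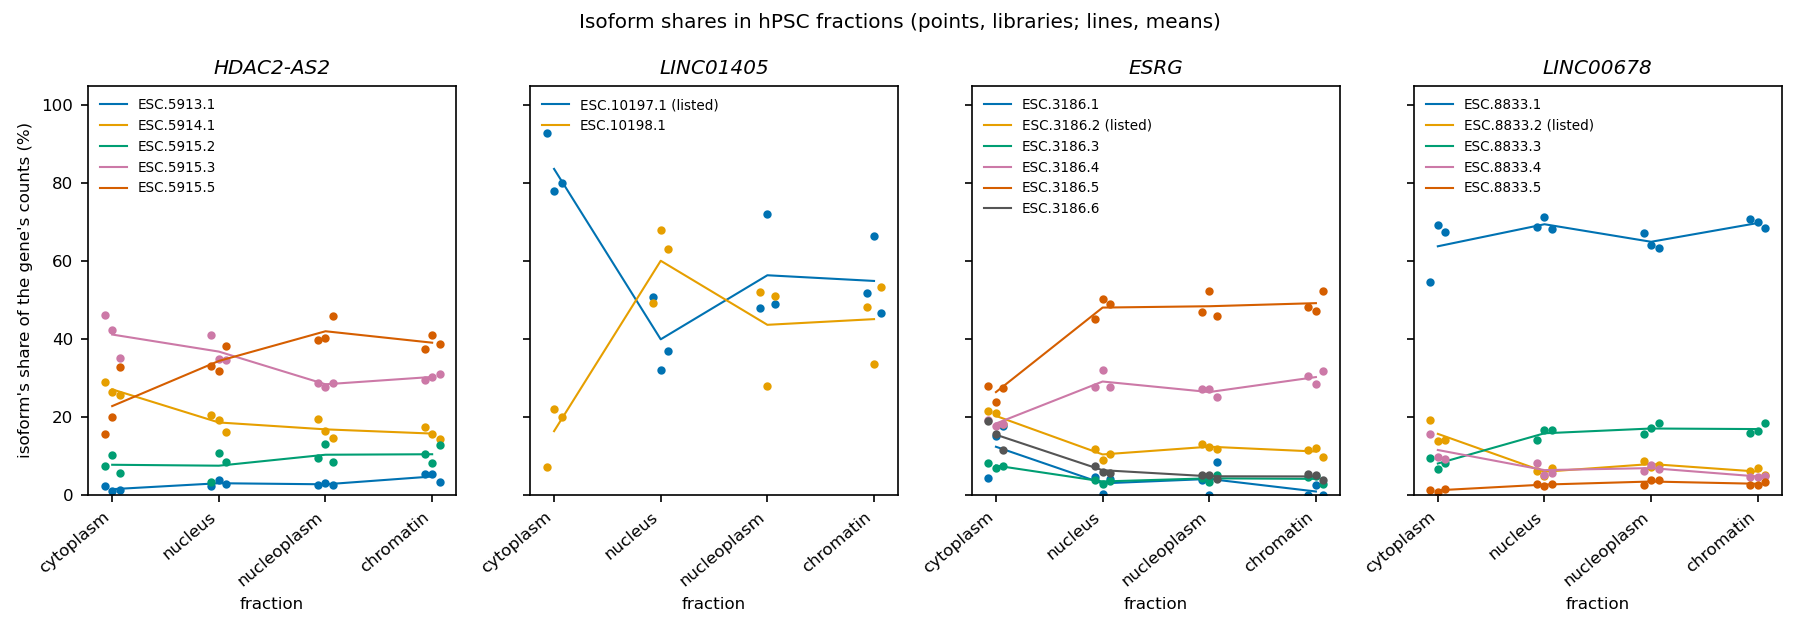
Share (%) of each gene's counts held by each hPSC isoform in 4 fractions (x axis), with points for libraries and lines through means; listed marks isoforms with an Ensembl transcript. The ESRG isoform ESC.3186.5 goes from 26.4% in cytoplasm to 48.1% in nucleus, and the listed LINC01405 isoform from 83.7% to 39.9%.

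The levels in derived cells, given as a description, were lower than in hPSCs for nearly every pair of gene and fraction. All derived libraries lay below all hPSC libraries in 43 of 44 pairs; since the choice of members used this contrast, nothing is read from that count. Over all genes the share wholly below hPSCs was, for cytoplasm, nucleus, nucleoplasm and chromatin in turn, 34%, 38.6%, 37% and 37.1% in ectoderm, 21.9%, 48.4%, 60.4% and 42.5% in endoderm, and 30.7%, 28.6%, 47.1% and 30.8% in mesoderm. The single exception was LINC01405 in mesoderm cytoplasm. By TPM the count was 40 of 44.

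In ectoderm HDAC2-AS2 was at 5 to 23 counts per library. Its means were 1.02 CPM in cytoplasm, 0.693 in nucleus, 0.779 in chromatin and 1.00 in nucleoplasm, 769- to 889-fold below hPSCs. By TPM these folds were 263 in cytoplasm, 689 in nucleus, 470 in chromatin and 348 in nucleoplasm. ESRG was at 8.37 to 13.7 CPM on average, 134- to 193-fold below (103 to 151 by TPM), and LINC00678 at 3.92 to 10.9 CPM, 40.7- to 81.9-fold below. LINC01405 had means of 0.628 to 1.27 CPM, 6.74- to 33.2-fold below (5.07 to 25.8 by TPM). Its counts were 15, 24 and 13 in cytoplasm, 5, 24 and 33 in nucleus, 9, 8 and 8 in chromatin and 11, 2 and 15 in nucleoplasm. In a further table, where the same ectoderm libraries were counted on a combined assembly, HDAC2-AS2 had means of 1.19 to 1.79 CPM and LINC-ROR was again not listed.

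In endoderm HDAC2-AS2, ESRG and LINC00678 were retained to a greater degree than in ectoderm. By CPM, HDAC2-AS2 and ESRG were retained most in cytoplasm. LINC00678 was at 17.4% of the hPSC mean in cytoplasm, 14.3% in chromatin, 13.0% in nucleoplasm and 7.22% in nucleus. For LINC00678 the edgeR fits below called neither chromatin nor nucleoplasm against cytoplasm. Such percentages carry no TMM factors, so their sizes need not match the fitted differences. HDAC2-AS2 was at 109, 323 and 328 CPM in cytoplasm (253 ± 125, SD, n = 3), 33.4, 30.0 and 39.5 in nucleus, 19.4, 31.8 and 25.6 in chromatin and 41.8, 40.1 and 37.6 in nucleoplasm. Cytoplasm replicate 1 was low, and still above every library of the other fractions. The cytoplasm mean was 32.4% of that of hPSCs, against 3.74% to 5.56% in the other 3 fractions.

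ESRG too was highest in cytoplasm in endoderm, while the order of its other fractions differed from that of HDAC2-AS2. It was at 195, 556 and 583 CPM in cytoplasm, 87.2, 100.2 and 110 in nucleus, 128, 163 and 123 in chromatin and 121, 119 and 126 in nucleoplasm. The cytoplasm mean was 25.6% of that of hPSCs, and the other fractions were at 6.13% to 6.62%. LINC00678 was at 48.4, 95.8 and 83.4 CPM in cytoplasm, 9.60, 28.5 and 31.5 in nucleus, 65.5, 73.4 and 50.0 in chromatin and 47.4, 40.1 and 48.3 in nucleoplasm. Its cytoplasm replicate 1 lay within the range of other fractions.

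Cytoplasm replicate 1 of endoderm was the lowest of its group for all 3 genes. It stood at 14.0%, 11.2% and 11.1% of the hPSC mean for HDAC2-AS2, ESRG and LINC00678, and without it the cytoplasm means were 325, 569 and 89.6 CPM, or 41.6%, 32.8% and 20.5% of hPSCs. In summed level a short list of hPSC markers moved with these lncRNAs, and a longer pluripotency list did not. Gene by gene the longer list leaned the same way in endoderm. Of 19 pluripotency genes tested, 12 were higher and 3 lower in cytoplasm than in nucleus, and 3 were higher and 14 lower in chromatin than in cytoplasm. The summed level of the 8 hPSC markers was 4950 to 5900 CPM in endoderm cytoplasm, 1670 to 2010 in nucleus and 1360 to 1410 in nucleoplasm and in chromatin, with POU5F1 at 1540 to 2000 against 436 to 526 CPM in cytoplasm and nucleus; SOX2 is not listed there. In hPSCs the same sum was 7760 to 8720 CPM in cytoplasm and 4810 to 6270 in nucleus. The summed level of the 25 pluripotency genes was 9280 to 10800 CPM in endoderm cytoplasm, 7450 to 10300 in nucleus, 7330 to 8330 in chromatin and highest, 10600 to 11400, in nucleoplasm. The part of either list in the endoderm result was not tested.

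LINC01405 was at 0 counts in 10 of 12 endoderm libraries and at 2 counts in each of the other two, both nucleoplasm. The endoderm assembly held 1 LINC01405 isoform and not the listed transcript that dominates in hPSC cytoplasm, so reads of that transcript may have had no model to be counted on, and no fold is given against endoderm.

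In mesoderm HDAC2-AS2 had 4 to 18 counts per library, with means of 0.569 CPM in cytoplasm, 1.03 in nucleus and 2.25 in chromatin. These were 304- to 1370-fold below hPSCs in those 3 fractions (345 to 2190 by TPM). The mesoderm assembly held 2 HDAC2-AS2 isoforms at 1 locus, against 5 at 3 loci in hPSCs, and 1 ESRG isoform against 6. Reads of other isoforms may have had no model to be counted on, so the folds of both genes compare different gene models. ESRG was at 172, 169 and 168 CPM in cytoplasm, 92.4, 91.2 and 110 in nucleus and 76.0, 106 and 146 in chromatin, with means 10.2-, 16.5- and 19.5-fold below hPSCs (11.6, 8.95 and 12.8 by TPM), and the lone nucleoplasm library was at 93.8 CPM. LINC01405 was at 11.5, 31.3 and 17.8 CPM in cytoplasm, 3.03, 2.65 and 3.41 in nucleus and 3.61, 1.60 and 3.21 in chromatin, and overlapped hPSCs in cytoplasm.

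For LINC01405 the unit decides how mesoderm compares with hPSCs. By CPM of the gene sum hPSCs were 1.69-fold higher in cytoplasm, 2.82-fold in nucleus and 2.81-fold in chromatin. By TPM the folds were 1.00, 0.502 and 0.782, so mesoderm was level or higher. The mesoderm table holds only the listed transcript. That transcript alone had means of 29.7 ± 21.0 CPM in hPSC cytoplasm and 20.2 ± 10.1 in mesoderm cytoplasm, and 3.42 ± 1.01 against 3.03 ± 0.384 CPM in nucleus (SD, n = 3), with overlapping ranges in both fractions.

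Within derived cells the fraction contrasts were tested as in hPSCs. Between cytoplasm and nucleus of endoderm all 3 tested members were higher in cytoplasm, with 69.8% of all genes called and 34.4% called higher. HDAC2-AS2 was higher by log2 2.16 (SE 0.33, adjusted p = 3.819e-05 by edgeR with Benjamini-Hochberg adjustment), ESRG by 1.46 (SE 0.30, adjusted p = 0.0005163) and LINC00678 by 1.08 (SE 0.29, adjusted p = 0.004003). Of 19 pluripotency genes tested there 12 were higher and 3 lower, with a median of 0.77 beside 0.01 over all genes. Among the members' neighbours 4 of 4 were higher, HDAC2 by 2.59 and LIN7C by 2.56.

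In chromatin against cytoplasm of endoderm 2 of 3 members were lower (73% of all genes called, 35.3% lower): HDAC2-AS2 by log2 -3.16 and ESRG by -1.54, with adjusted p of 1.143e-06 and 0.0003067 by edgeR. In nucleoplasm against cytoplasm the same 2 were lower (65.4% called, 33.3% lower), at -1.93 and -1.13. LINC00678 was at -0.11 and -0.01 in these contrasts and did not pass. HDAC2-AS2 was also lower in chromatin than in nucleoplasm, at -1.22 (adjusted p = 0.006185 by edgeR, 53.5% called), and with total counts in place of TMM factors this was -0.64 and did not pass (adjusted p = 0.1177).

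In mesoderm 2 of 3 members were higher in cytoplasm than in nucleus (63.3% called, 31.8% higher). LINC01405 was higher by log2 2.85 (SE 0.39, adjusted p = 8.771e-05 by edgeR) and ESRG by 0.90 (SE 0.20, adjusted p = 0.00258). By TPM mesoderm ESRG ran the other way, at 56.1 to 63.6 in cytoplasm and 65.05 to 88.0 in nucleus. Its chromatin libraries were at 54.3 to 98.5 TPM, and the means were 60.9, 72.8 and 76.2 in turn. TPM was not tested in derived cells, so the direction for ESRG depends on the unit. In chromatin against cytoplasm 3 of 3 were called (66.4% called): LINC01405 at -3.09, ESRG at -0.82 and HDAC2-AS2 at 1.79 (SE 0.50, adjusted p = 0.007859 by edgeR), the last from 4 to 12 counts in cytoplasm and 13 to 18 in chromatin.

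In ectoderm 0 of 4 members were called by edgeR between the libraries labelled cytoplasm and nucleus, where 53.7% of all genes were; LINC00678 at log2 0.45 had an adjusted p of 0.063. None was called in chromatin against cytoplasm (60.8% called). ESRG alone was called in the other 2 contrasts, at -0.47 in chromatin against nucleoplasm (adjusted p = 0.02299 by edgeR, 44.1% called) and 0.43 in nucleoplasm against cytoplasm (adjusted p = 0.03637 by edgeR, 37.8% called). Each of these calls was lost when any of 5 of the 6 libraries was left out, and the first also with total counts (-0.18, adjusted p = 0.3778 by edgeR).

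**Figure D4:**
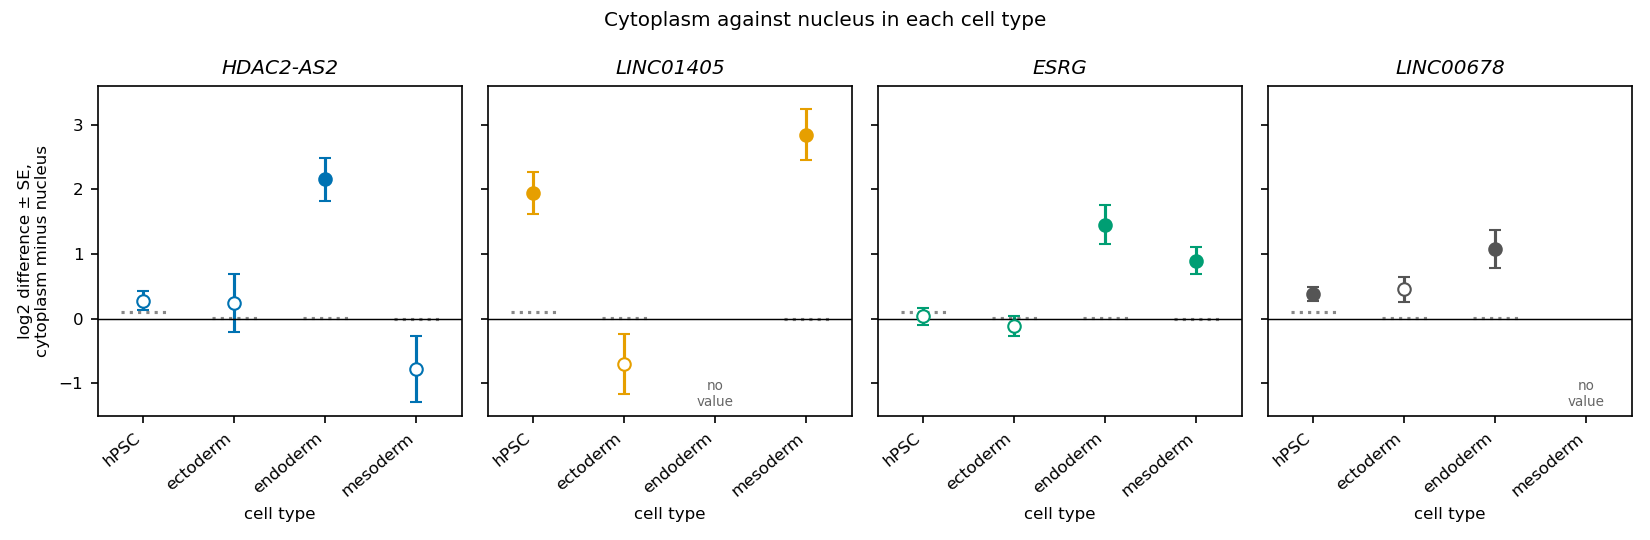
Log2 difference ± SE of cytoplasm minus nucleus (y axis) in each cell type for 4 lncRNAs, from 1 edgeR fit per cell type with 3 libraries a group; filled points passed an adjusted p of 0.05 and dotted lines are the median of all genes tested. HDAC2-AS2 and ESRG are at 2.16 and 1.46 in endoderm against 0.28 and 0.03 in hPSCs.

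Whether a fraction contrast differed between cell types was tested directly, on the 10681 genes (cytoplasm and nucleus) or 10689 genes (chromatin and cytoplasm) that passed the filter among those in all 4 tables. The gene sums rest on different assemblies. HDAC2-AS2 had 5 isoforms in hPSCs, 3 in endoderm and 2 in mesoderm, and ESRG had 6 in hPSCs and 1 in mesoderm. Isoforms of both genes differed in opposite directions between hPSC fractions, and the part of the gene models in these tests was not tested. For endoderm minus hPSC, cytoplasm against nucleus, 2 of 2 estimable members were called, with 38% of all genes called: HDAC2-AS2 at log2 1.96 (SE 0.40, adjusted p = 0.0009059 by edgeR) and ESRG at 1.50 (SE 0.34, adjusted p = 0.001886). In the same test 5 of 16 pluripotency genes were higher and 1 lower, and 3 of 4 neighbours higher. For chromatin against cytoplasm (40.8% called) HDAC2-AS2 was at -2.86 and ESRG at -1.73, with adjusted p of 1.254e-05 and 0.001145 by edgeR; there 11 of 16 pluripotency genes and 6 of 6 cytoplasmic controls were lower.

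For ectoderm minus hPSC, cytoplasm against nucleus, LINC01405 was the 1 of 3 members called, at log2 -2.47 (SE 0.68, adjusted p = 0.005739 by edgeR, 51.9% called). All 6 cytoplasmic controls were lower in the same test, with a median of -1.34, so this value moves with the ectoderm controls; their part in it was not tested. Without hPSC cytoplasm replicate 1 the value was -1.86. It rests on 13 to 24 LINC01405 counts in ectoderm cytoplasm libraries and 5 to 33 in ectoderm nucleus libraries. For mesoderm minus hPSC, ESRG was at 0.93 (adjusted p = 0.04633 by edgeR, 25.6% called), which was lost when any of the 12 libraries was left out and with total counts (0.59, adjusted p = 0.219), and HDAC2-AS2 was at 2.21 in chromatin against cytoplasm (SE 0.60, adjusted p = 0.01096 by edgeR, 23% called). No member was called for ectoderm minus hPSC in chromatin against cytoplasm, where 23.2% of all genes were. LINC00678 could be compared only over the hPSC, ectoderm and endoderm tables: endoderm minus hPSC was log2 0.76 for cytoplasm against nucleus (SE 0.35, adjusted p = 0.1005 by edgeR, 29.8% of all genes called) and -0.03 for chromatin against cytoplasm (44.4% called). Ectoderm minus hPSC was 0.27 (46.7% called) and 0.69 (adjusted p = 0.08903 by edgeR, 27.1% called) for LINC00678, and none of these 4 values passed.

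The derived cell types also differed from each other, on the scale of log2 differences from the edgeR fit per fraction. Their assemblies differed in HDAC2-AS2, ESRG, LINC01405 and LINC00678 isoforms, and the part of the gene models in these differences was not tested. HDAC2-AS2 was higher in endoderm than in ectoderm by 7.86 in cytoplasm, 5.95 in nucleus and 5.19 in chromatin, and ESRG by 5.41, 3.86 and 3.68, with adjusted p from 5.596e-10 to 3.768e-08. These were 2 of 2 members with counts in both cell types, where 72.1%, 64.7% and 59.3% of all genes were called; LINC01405, at 0 in those endoderm libraries, is not compared. LINC00678, in a fit of 3 tables, was higher in endoderm by 3.37, 2.82 and 2.75 (69.7%, 61.9% and 66.6% of all genes called). HDAC2-AS2 had the largest of these increases in each of the 3 fractions, ESRG the next and LINC00678 the smallest.

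Mesoderm against ectoderm had 2 of 3 members called in cytoplasm (61.3% of all genes called), 2 of 3 in nucleus (66%) and 3 of 3 in chromatin (49%). ESRG was higher by log2 4.13, 3.31 and 3.27 and LINC01405 by 4.33, 0.95 and 2.19, while HDAC2-AS2 passed in chromatin alone, at 1.59 (adjusted p = 0.0006224 by edgeR). The LINC01405 call in nucleus was lost when any of 4 of the 6 libraries was left out. These were ectoderm replicates 1 and 2 and mesoderm replicates 1 and 3, with values from 0.69 to 0.93. By TPM, LINC01405 in nucleus was at 88.7 to 118 in mesoderm and 2.43 to 18.1 in ectoderm. The size of this difference therefore depends on the unit. Ectoderm libraries held 13 to 24 LINC01405 counts in cytoplasm, 5 to 33 in nucleus and 8 to 9 in chromatin. Mesoderm against endoderm had 2, 2 and 1 of 2 such members called (54.5%, 70.5% and 40.5% of all genes). HDAC2-AS2 was lower in mesoderm by -8.73, -5.56 and -3.60, ESRG by -1.28 in cytoplasm and -0.55 in nucleus, and in chromatin ESRG was at -0.41 (adjusted p = 0.1581 by edgeR). In nucleus the ESRG libraries of endoderm and mesoderm overlapped in CPM, with means of 99.3 and 98.0, and with total counts the difference was 0.04 (adjusted p = 0.8005 by edgeR). The order of levels was hPSC, endoderm, then ectoderm and mesoderm for HDAC2-AS2, and hPSC, endoderm, mesoderm, ectoderm for ESRG in cytoplasm.

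The genes most like each member are given by Pearson's r of log2(CPM + 1), as a description. Over the 16 group means AOX1, an aldehyde oxidase gene (r = 0.987), PAPSS2 (0.948) and the stem-cell lncRNA TUNAR (0.939) were nearest to HDAC2-AS2. ZDHHC22 (0.981), TTC9 (0.975) and CXCL12, a chemokine gene (0.974), were nearest to ESRG, and RPL13P12 (0.938), NSG1 (0.915) and ENDOG (0.880) to LINC01405. HDAC2-AS2 and ESRG had an r of 0.874 with each other, LINC01405 and ESRG 0.583, and HDAC2-AS2 and LINC01405 0.282; the 16 points share cell types and depth. Over the 12 hPSC libraries PTRHD1 (0.987), MRPL53 and SERF2 (both 0.985) were nearest to LINC01405, and RRP36 (0.947), COQ7 (0.941) and KLF16 (0.940) to LINC00678. For ESRG these were ZBTB9 (0.913) and POGK (0.902), and for LINC-ROR CA5BP1 (0.850) and PLA2G12A (0.846), each after 1 gene without a symbol; the 3 nearest to HDAC2-AS2 had no symbol.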

How the data were processed

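RNA-seq libraries (total RNA per the labels) of 4 cell types and 4 fractions were compared in 4 tables, each with its own transcript assembly, plus 1 further table of ectoderm libraries; 1 column that matched no sample label was left out. The deposited values were counts and TPM per transcript. Per the submitters' processing notes, STAR and RSEM were used with hg38; versions, strand and assembly settings are not given in the sources used here. Counts were summed per Ensembl gene and expressed as CPM of the library total. Differences were tested with edgeR 4.0.16 (quasi-likelihood test, two-sided, TMM normalization, low counts removed by filterByExpr at 10), with Benjamini-Hochberg adjustment over all features and a threshold of 0.05, and the code was tested on simulated data. DESeq2 1.42.0 and limma 3.58.1 (on the authors' TPM plus 1 or 0.1) were alternatives for the hPSC gene sums. Replicates are samples labelled as repeats, so p-values measure the spread between them, which may be technical. Named genes were the 5 members, the gene lists, and per member the 3 genes with the highest r among those of at least 10 CPM. Members and lists were chosen with earlier results of these data known. Some transcript sequences are not reported here.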

Additional observations from a re-analysis of the deposited data

Results flagged for a closer look

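7 results differed between cell types by a direct test of the difference, in the edgeR fits with Benjamini-Hochberg adjustment. Each cell type had its own transcript assembly, and the part of the gene models in these results was not tested. In cytoplasm against nucleus, HDAC2-AS2 (log2 1.96) and ESRG (1.50) differed between endoderm and hPSCs, and ESRG (0.93) between mesoderm and hPSCs. LINC01405 (-2.47) differed between ectoderm and hPSCs, at 5 to 33 counts per ectoderm library. All 6 cytoplasmic controls were lower in the same ectoderm test, with a median of -1.34, and their part in it was not tested. In chromatin against cytoplasm, HDAC2-AS2 (-2.86) and ESRG (-1.73) differed between endoderm and hPSCs and HDAC2-AS2 (2.21) between mesoderm and hPSCs, the last at 4 to 18 counts per mesoderm library. All 6 cytoplasmic controls were lower in that endoderm test too. The ESRG difference between mesoderm and hPSCs is not firm: it was lost when any of the 12 libraries was left out, with a replicate block and with total counts (0.59, adjusted p = 0.219 by edgeR). By TPM the mean of ESRG in mesoderm was lower in cytoplasm (60.9) than in nucleus (72.8).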

How the results depend on the processing

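Of the 5 members, 2 were called in cytoplasm against nucleus of hPSCs, 2 in chromatin against nucleoplasm, 1 in chromatin against cytoplasm and 1 in nucleoplasm against cytoplasm, and leaving out 1 library gave 2 to 3, 0 to 2, 1 to 1 and 1 to 2. A 2-fold minimum left 1 in the first and 1 in the second, and no filter on low counts 1 in the second. In chromatin against cytoplasm DESeq2 and upper-quartile factors each called 2 and limma on TPM plus 1 or plus 0.1 called 5. In nucleoplasm against cytoplasm upper-quartile factors and total counts each called 2. On TPM plus 1 the median of all genes in chromatin against cytoplasm was 0.71, against 0.09 in the edgeR fit, so directions on TPM are relative to that.

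Some values changed sign, most of them for members that had not passed. With TPM plus 1 and plus 0.1, HDAC2-AS2 was at -0.0767 and -0.077 in cytoplasm against nucleus, 0.1546 and 0.155 in chromatin against nucleoplasm (called in the edgeR fit) and 0.5029 and 0.5045 in chromatin against cytoplasm. On these scales LINC01405 was at 0.5268 and 0.5357 and ESRG at 0.5134 and 0.514 in chromatin against nucleoplasm, LINC00678 at 0.2692 and 0.2702 in chromatin against cytoplasm, and ESRG at -0.0531 and -0.0532 in nucleoplasm against cytoplasm. With total counts LINC01405 was at 0.0811 and ESRG at 0.2108 in chromatin against nucleoplasm, LINC00678 at 0.0145 in chromatin against cytoplasm, and ESRG at 0.0425 in mesoderm against endoderm nucleus, where the edgeR fit had called -0.55. DESeq2 put ESRG at -0.0247 in cytoplasm against nucleus. Leaving out 1 library gave -0.0205 to 0.0977 for ESRG and -0.5212 to 0.3133 for LINC-ROR in cytoplasm against nucleus and -0.1224 to 0.0233 for ESRG in chromatin against nucleoplasm. By TPM the hPSC over mesoderm folds of LINC01405 were 0.502 in nucleus, 0.278 in nucleoplasm and 0.782 in chromatin. Fits on TPM were run for hPSC gene sums only. In mesoderm the mean TPM of ESRG was 60.9 in cytoplasm, 72.8 in nucleus and 76.2 in chromatin, opposite in direction to the edgeR calls. The causes were not tested.

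No pairing of libraries by replicate number was seen. Same-numbered hPSC libraries had correlations of -0.081 to 0.144, 1 of 18 over 0.1, and other-numbered ones -0.147 to 0.133. Deviations from means of 3 libraries can miss such pairing, so it stays undecided. With a replicate block LINC-ROR was at 0.0067 in cytoplasm against nucleus, 37 of 38 isoform calls and 6 of 7 differences between cell types were counted, and ESRG in mesoderm minus hPSC had an adjusted p of 0.05967 by edgeR. Leaving out 1 library gave 13 to 15 calls for fractions of derived cells (15), 31 to 39 for isoforms (38), 6 to 8 for differences between cell types (7) and 23 to 25 between derived cell types (24, which includes LINC01405 against endoderm libraries at 0). The fits of 3 tables for LINC00678, and the endoderm cytoplasm means without replicate 1, were chosen after seeing the data. Depth limits LINC-ROR everywhere, HDAC2-AS2 in ectoderm and mesoderm, and LINC01405 in ectoderm.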
